A study of Mus musculus with 4 samples.

Results

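The genes described here are long noncoding RNAs: the nuclear transcripts Malat1 and Neat1, and the small nucleolar RNA (snoRNA) host genes Gas5, Snhg1, Snhg3, Snhg5, Snhg6, Snhg8 and Snhg12. They were chosen by name, and 7 of the 9 names were found among the 37583 features of the count tables. Snhg6 and Snhg8 were not among the feature names or the names paired with them, and were not analysed here. Expression was measured by RNA sequencing in naive CD4+ T cells sorted from the spleen of C57BL/6 mice. All 4 cultures lasted 24 h on plates coated with antibodies to CD3 and CD28. The medium held IL-6, IL-23 and IL-1β, with IFN-γ and IL-4 blocked by antibodies, conditions that the labels call aTh17. One culture received DMAT at 1.5 µM and one received CX4945 at 1 µM, both inhibitors of the protein kinase CK2 per the labels, and each had a control library named for it in the titles. The labels do not say whether the controls received a solvent, how many animals gave the cells, or the animals' age.

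Malat1 RNA stays in the nucleus, where it gathers at nuclear speckles, and Neat1 RNA is found in paraspeckles. A snoRNA host gene is transcribed and spliced like a coding gene, but its introns carry snoRNAs. Many snoRNAs, though not all, guide the chemical modification of ribosomal RNA. The spliced host RNA often starts with a run of pyrimidines, is bound by ribosomes and is then degraded by nonsense-mediated decay. Gas5 was named for its accumulation in growth-arrested cells and is known in T cells as a transcript whose level depends on growth and translation.

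The first bases of these genes are shown because the pyrimidine run at the start is the feature that host genes share with ribosomal protein genes. The stretches hold 40 bases before and 20 bases from the annotated first base, in the RefSeq annotation of GRCm38.p6, a later build than the mm9 of the counts. The table of promoters held 6 of the 7 genes, with separate starts for Gas5, and it held none for Neat1. Capitals mark the longest run of C and T that lies from 10 bases before the first base to the end of the stretch, on the gene's own strand.
Malat1, chr19:5802653-5802712, minus strand: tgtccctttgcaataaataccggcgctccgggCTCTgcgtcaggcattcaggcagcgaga
Gas5, first start, chr1:161034561-161034620, plus strand: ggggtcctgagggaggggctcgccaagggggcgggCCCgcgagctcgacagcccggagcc
Gas5, other start, chr1:161035126-161035185, plus strand: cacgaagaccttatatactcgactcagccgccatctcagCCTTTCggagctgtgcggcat
Snhg1, chr19:8723447-8723506, plus strand: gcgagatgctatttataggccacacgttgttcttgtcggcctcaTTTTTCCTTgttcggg
Snhg3, chr4:132353667-132353726, minus strand: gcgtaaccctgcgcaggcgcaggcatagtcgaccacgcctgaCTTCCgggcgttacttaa
Snhg5, chr9:88522878-88522937, minus strand: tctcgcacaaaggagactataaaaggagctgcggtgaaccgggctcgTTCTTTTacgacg
Snhg12, chr4:132308638-132308697, plus strand: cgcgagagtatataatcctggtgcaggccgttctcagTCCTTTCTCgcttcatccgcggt

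The run was 9 bases long in Snhg1 and Snhg12, 7 in Snhg5, 6 at the other start of Gas5, 5 in Snhg3, 4 in Malat1 and 3 at the first start of Gas5. Only in Snhg12 and at the other start of Gas5 did it span the annotated first base. In Snhg3 it began at base 3, in Snhg1 at base 5 and in Snhg5 at base 8. In Malat1 and at the first start of Gas5 it ended before the first base. Among all 32851 promoters of the table, 7.11% held a run of at least 9 in the same window, 17.9% at least 7, 28.7% at least 6, 46.4% at least 5 and 68.6% at least 4. The letters TATA, which read the same on both strands, stood in the 40 bases before the start of Snhg1, Snhg5, Snhg12 and the other start of Gas5. They stood there in 7.63% of all promoters. These are letters in a window and were not tied to any factor.

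In mm9, which is the build of the deposited coordinates, Malat1 lies on chromosome 19 from 5795690 to 5802671. The annotation counted as exon covers 1834 of its 6982 bases, so most of this unspliced RNA fell outside annotated exons. Neat1 lies near it on chromosome 19 from 5824708 to 5845478, and its annotated exons span 3004 of 20771 bases. Gas5 lies on chromosome 1 from 162964553 to 162968670 and overlaps Zbtb37. The annotated exons of Gas5 cover 3760 of its 4118 bases, so few of its reads could fall outside them. Snhg1 lies on chromosome 19 from 8797986 to 8800932, and every one of its 2947 bases is counted as exon, so its exon reads include its introns. Snhg3 lies on chromosome 4 from 131903929 to 131909601 and overlaps Rcc1, a gene for a chromatin-bound exchange factor. Snhg12 lies on the same chromosome from 131864593 to 131866939, and Snhg5 on chromosome 9 from 88415894 to 88417721.

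The libraries held 2772525 exon reads in the control for DMAT, 2523446 with DMAT, 2285545 in the control for CX4945 and 2056635 with CX4945. A count of 3 reads, the upper limit that a count of 0 allows, equals 1.08 to 1.47 CPM, the count per 1000000 reads of the TMM-scaled library. Reads outside exons made up 12.4% to 13.0% of gene reads, and exon-exon reads 23.2% to 23.8% of exon reads. All 10 T cell markers had reads in every library, with a summed level of 2934 to 3153 CPM. Of the 10 Th17 markers, 9 or 10 had reads, and Il22 was at 0 with DMAT. Each group was 1 library, so no difference within a pair has a replicate check, and the 95% intervals below cover counting error only. In these bulk cultures, fewer cells of a type and less RNA per cell cannot be told apart.

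All 7 genes were measured in every library. Per kb of exon, Gas5 was the highest of the 7 in every library, at 162.9 CPM per kb in the control for DMAT, 134.9 with DMAT, 149.9 in the control for CX4945 and 163.6 with CX4945. Snhg5 followed, from 85.0 to 109.2 CPM per kb, and Snhg1 was at 71.4 to 96.8, so these ranges overlapped. The order depends on the annotation, as exons cover all of the Snhg1 gene and 54.3% of the Snhg5 gene. Without division by length, Snhg1 was at 210.4 to 285.4 CPM and Snhg5 at 84.4 to 108.5 CPM. Snhg12 was at 51.9 to 59.8 CPM per kb, below Snhg1 in every library. Malat1 spanned 22.7 to 71.5, Neat1 24.4 to 41.1 and Snhg3 11.5 to 27.4 CPM per kb, and these 3 ranges overlapped. Among the 9538 genes with at least 40 exon reads over the libraries, 95.6% to 96.6% had a lower level per kb than Gas5. For Snhg3 that share was 48.5% with DMAT and 73.9% in its control, the largest distance between libraries of a pair. The highest library stood 3.15-fold above the lowest for Malat1, 2.37-fold for Snhg3, 1.68-fold for Neat1, and 1.15 to 1.36-fold for Gas5, Snhg1, Snhg5 and Snhg12.

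**Figure D1:**
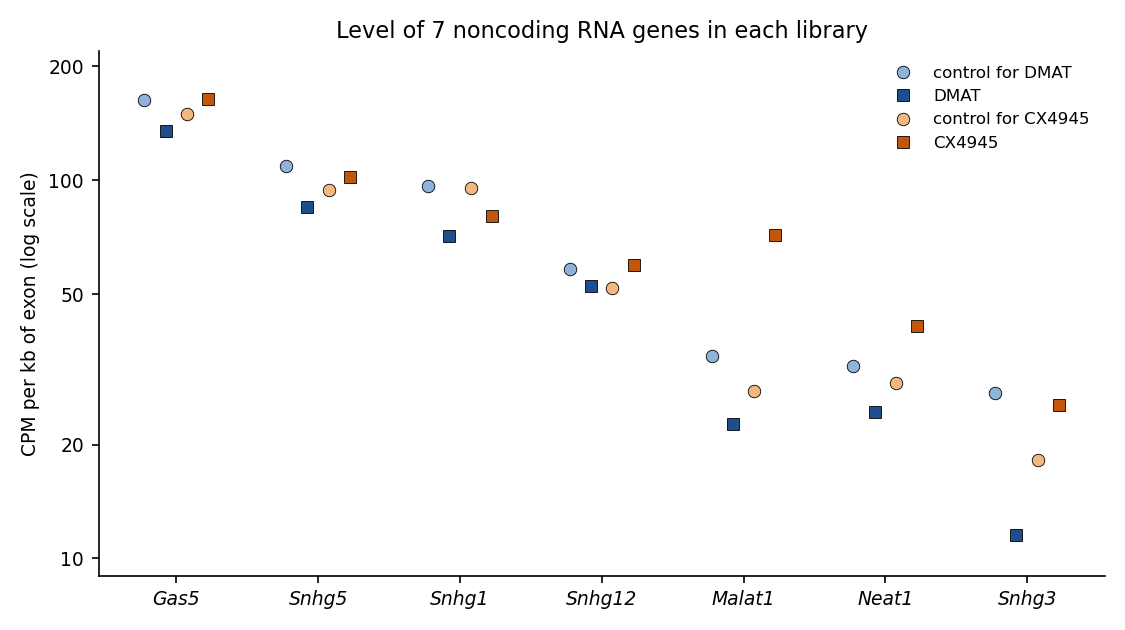
Level of the 7 noncoding RNA genes in each of the 4 libraries, in CPM of exon reads per kb of annotated exon on a log axis. Circles are the control libraries and squares the inhibitor libraries. Gas5 lies highest throughout, Malat1 with CX4945 lies at 71.5 while its other libraries lie between 22.7 and 34.4, and Snhg3 with DMAT is the lowest point.

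Malat1 and Neat1, the nuclear RNAs, had opposite signs with the 2 inhibitors. Malat1 had 175 exon reads in the control for DMAT, 106 with DMAT, 116 in the control for CX4945 and 267 with CX4945, or 63.1, 41.6, 50.7 and 131.2 CPM. The CX4945 library stood above the other 3 and the DMAT library below them. The ratio of CX4945 to its control was 2.59 (95% counting interval 2.07 to 3.24), past the 2-fold size used for a call, and that of DMAT to its control was 0.660 (0.514 to 0.845). On the log2 scale with a prior count of 2, the CX4945 value was 1.36, the rank 27 from the top among 9358 genes with at least 20 exon reads in the pair. Of those genes, 0.887% were at least 2-fold higher with CX4945. The 2 control libraries differed by a ratio of 0.805 (0.631 to 1.02), control for CX4945 over control for DMAT.

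Over the whole Malat1 gene the counts were 686, 415, 482 and 1026 reads in the same order of libraries, so 74.0% to 75.9% of its reads lay outside annotated exons. The ratio of gene reads was 2.38 (2.14 to 2.66) with CX4945 and 0.656 (0.580 to 0.743) with DMAT. The density outside exons was 1.01 to 1.12 times that inside them. The difference was thus as large in the part of Malat1 that the annotation leaves out, at ratios of 2.33 (2.05 to 2.65) and 0.659 (0.570 to 0.760). Malat1 had 1 exon-exon read in every library. All of its exon reads were unique matches.

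Neat1 had 269 exon reads in the control for DMAT, 187 with DMAT, 200 in the control for CX4945 and 251 with CX4945, or 96.9, 73.4, 87.5 and 123.3 CPM. The order of its libraries was that of Malat1. Its ratio was 1.41 (1.17 to 1.71) with CX4945 and 0.757 (0.625 to 0.916) with DMAT, against 0.903 (0.748 to 1.09) between the controls. Only 13, 15, 14 and 19 of its reads lay outside annotated exons in that order of libraries. This was a density of 0.26 to 0.53 CPM per kb over 17767 bases, against 24.4 to 41.1 inside the exons. The Neat1 ratios thus describe the annotated exons and say little about RNA that spans the rest of the gene. No exon-exon read was counted for Neat1, which allows a share of up to 1.12% to 1.60% of its exon reads.

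The plot of densities sets these 2 genes beside the hosts with reads outside exons. For Snhg5, 13.3% to 19.8% of gene reads lay outside exons, for Snhg12 13.5% to 19.2% and for Snhg3 16.7% to 21.6%. As point values, all these shares lie above the 12.4% to 13.0% of the whole libraries. For Snhg5 the exact binomial interval lay above that range in the control for CX4945 (13.5% to 23.2%) and with CX4945 (15.1% to 25.3%). For Snhg12 it did so with CX4945 (14.4% to 24.7%). All other intervals of these hosts, with those of Snhg3 in every library, included the share of the whole library. Gas5, with only 358 bases outside annotated exons, had at most 1 read there in a library, and Snhg1 can have none.

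**Figure D2:**
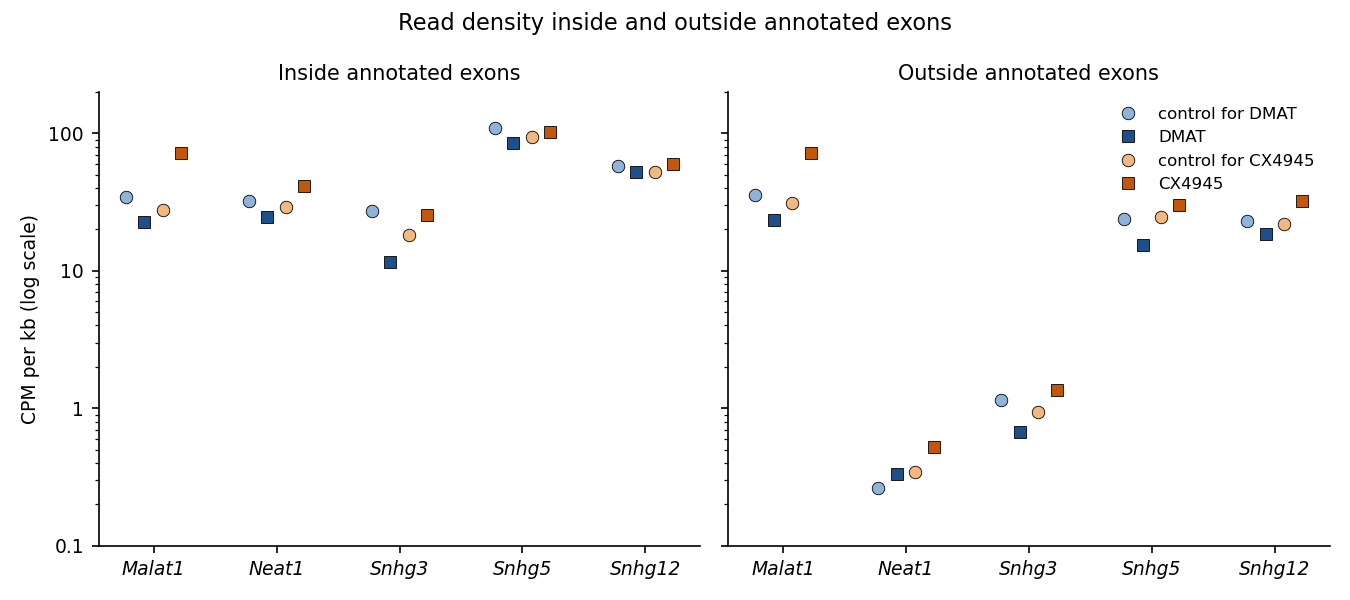
Read density inside (left) and outside (right) annotated exons, in CPM per kb on a shared log axis, for the 5 genes with both kinds of sequence. Circles are controls and squares inhibitor libraries. Malat1 lies at the same height in both panels, between 22.7 and 72.4, while Neat1 falls from 24.4 to 41.1 inside to 0.26 to 0.53 outside.

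Among the host genes, Gas5 was the most abundant. It had 1700 exon reads in the control for DMAT, 1292 with DMAT, 1288 in the control for CX4945 and 1252 with CX4945, or 612.5, 507.2, 563.5 and 615.3 CPM. The DMAT library was the lowest, and the CX4945 library lay within 3 CPM of the control for DMAT. Its ratio was 0.828 (0.770 to 0.891) with DMAT and 1.09 (1.01 to 1.18) with CX4945. The ratio between the controls, 0.920 (0.855 to 0.990), also excluded 1, so the libraries without inhibitor differed by about as much as CX4945 did from its control.

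Snhg1 carries a cluster of box C/D snoRNAs. It had 792 exon reads in the control for DMAT, 536 with DMAT, 644 in the control for CX4945 and 481 with CX4945, or 285.4, 210.4, 281.7 and 236.4 CPM. Both inhibitor libraries lay below both controls, which was so for no other of the 7 genes and for 15.0% of 9262 genes. The ratio was 0.737 (0.660 to 0.824) with DMAT, 0.839 (0.744 to 0.946) with CX4945 and 0.987 (0.888 to 1.10) between the controls. Of 9262 genes with enough reads in both pairs, 1.62% had intervals below 1 in both.

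Snhg3 hosts the Snora73 genes, whose RNA is also called U17. It had 75 exon reads in the control for DMAT, 29 with DMAT, 41 in the control for CX4945 and 51 with CX4945, or 27.0, 11.4, 17.9 and 25.1 CPM. The DMAT library was the lowest and the control for DMAT the highest. The ratio with DMAT was 0.421 (0.265 to 0.655), past 2-fold, beside 1.31% of 9649 genes at least 2-fold lower with DMAT. With CX4945 it was 1.40 (0.908 to 2.16), and between the controls 0.664 (0.442 to 0.984). Only 55.1% of Snhg3 exon reads were unique matches. On unique reads alone (39, 21, 21 and 27) the DMAT ratio was 0.588 (0.328 to 1.02), no longer 2-fold. Exon-exon reads numbered 40 and 22 in the DMAT pair, and the other exon reads 35 and 7, a ratio of 0.218 (0.0817 to 0.498). Summed over the libraries, 97.2% of the Snhg3 exon-exon reads were unique. Nearly all of its reads with several matches were thus among the other exon reads, so that ratio rests mostly on such reads. The overlapping gene Rcc1 had 784 and 721 exon reads in that pair, a ratio of 1.00 (0.904 to 1.11). Reads of the overlap could not be told apart between the genes here.

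Snhg5 had 301 exon reads in the control for DMAT, 215 with DMAT, 214 in the control for CX4945 and 206 with CX4945, or 108.5, 84.4, 93.6 and 101.2 CPM. Snhg12, the host of H/ACA and box C/D snoRNAs, had 263, 218, 193 and 198 exon reads in the same order, or 94.8, 85.6, 84.4 and 97.3 CPM. The DMAT library of Snhg5 was its lowest, and all 4 libraries of Snhg12 lay from 84.4 to 97.3 CPM. The ratio for Snhg5 was 0.778 (0.650 to 0.930) with DMAT and 1.08 (0.889 to 1.32) with CX4945. For Snhg12 the intervals included 1 with DMAT, at 0.903 (0.751 to 1.08), and with CX4945, at 1.15 (0.940 to 1.41). Between the controls the ratio was 0.863 (0.721 to 1.03) for Snhg5 and 0.891 (0.736 to 1.08) for Snhg12.

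Seen together, all 7 genes were lower with DMAT than in its control, and the interval was below 1 for 6 of them, all but Snhg12. Over all 9649 genes, 9.74% had such an interval, and 10.7% of the genes with at least 90 reads in the pair did. With CX4945, 6 genes were higher than the control and Snhg1 was lower. The interval was above 1 for Malat1, Neat1 and Gas5, beside 7.41% of 9358 genes, and below 1 for Snhg1, beside 7.33%. The median log2 ratio of the 7 genes was -0.40 with DMAT and 0.20 with CX4945, against 0.00 over all genes in both pairs. The control for CX4945 was itself lower than the control for DMAT in all 7, with a median of -0.16, and 2 intervals, those of Gas5 and Snhg3, were below 1, beside 9.25% of 9564 genes. The control comparison shares a library with each inhibitor pair, so a high count in the control for DMAT, or a low one in the control for CX4945, enters both ratios. DMAT and CX4945 were used at different doses and in separate experiments, and their values are given side by side without a test between them.

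**Figure D3:**
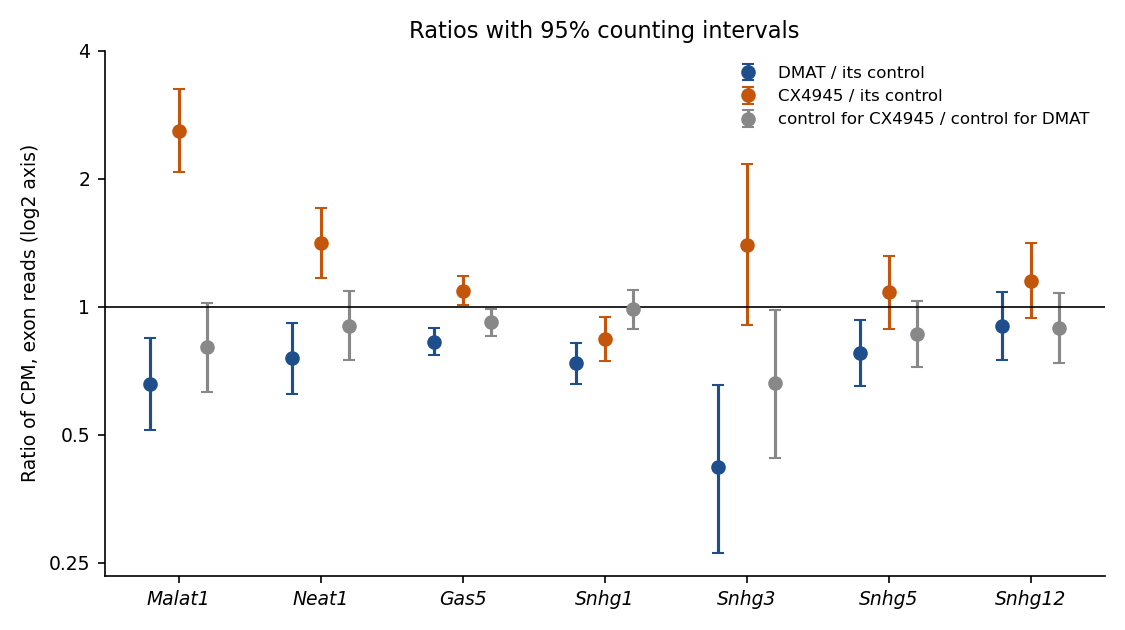
Ratio of CPM of exon reads for each gene on a log2 axis, with 95% counting intervals, for DMAT over its control, CX4945 over its control, and the control for CX4945 over the control for DMAT. With DMAT 6 of 7 intervals lie below 1. With CX4945 the Malat1 interval (2.07 to 3.24) lies wholly above 2, while Snhg1 (0.744 to 0.946) lies below 1.

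Malat1, Neat1 and Gas5 had intervals below 1 with DMAT and above 1 with CX4945, a combination held by 73 of 9262 genes (0.788%). The plain signs, lower with DMAT and higher with CX4945, were shared by 23.9% of these genes and by 6 of the 7.

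**Figure D4:**
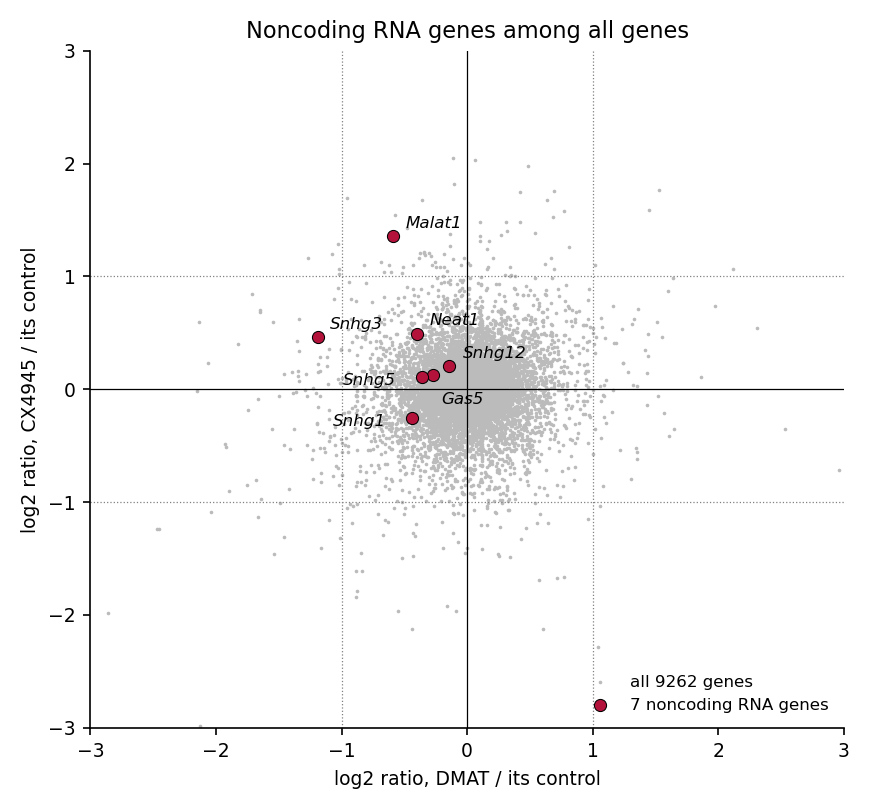
Log2 ratio with DMAT (horizontal) against log2 ratio with CX4945 (vertical), each inhibitor library over its own control with a prior count of 2, for 9262 genes with at least 20 exon reads in both pairs (4 genes lie outside the axes). Dotted lines mark 2-fold. Malat1 (-0.59, 1.36) and Snhg3 (-1.19, 0.46) lie beyond 2-fold on 1 axis each, and Snhg1 (-0.44, -0.25) is alone among the 7 in the lower left.

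The joint fit tested the average difference between inhibitor and control libraries over both experiments, with the experiment as a block. Per gene it has 1 residual degree of freedom, the disagreement between the inhibitors, against 40.98 prior degrees of freedom drawn from all genes. A gene's SE and p-value thus rest mostly on the spread over all genes. How far its own 2 pairs disagree enters little. Separate animals are not stated for the experiments, so the p-values may measure technical spread. None of the 7 genes passed an adjusted p of 0.05 (edgeR quasi-likelihood test, Benjamini-Hochberg over 9538 genes), where 93 genes (0.975%) did. DESeq2 also called none. At an unadjusted p under 0.05 there were Malat1 and Snhg1, beside 7.74% of all genes. Snhg1 had a log2 fold change of -0.35 ± 0.10 (SE) and an adjusted p of 0.0738 in edgeR's quasi-likelihood test, lower in 2 of 2 pairs. With unique exon reads it passed, at -0.37 and an adjusted p of 0.0183 in that edgeR test. Over all settings of the fit its adjusted p in edgeR or DESeq2 ranged from 0.0183 to 1.00. Malat1 had 0.44 ± 0.21 and an adjusted p of 0.625 in edgeR, higher in 1 of 2 pairs. A fit without the DMAT library, which also dropped the block, gave Malat1 a value of 1.20. It set the CX4945 library against the controls of both experiments. The remaining 5 lay between -0.38 (Snhg3) and 0.05 (Neat1), with edgeR adjusted p of 0.880 to 0.992. For reads outside exons, none of the 5 genes tested passed in edgeR, and 0.904% of 6086 genes did. At an unadjusted p under 0.05 there were also 0 of the 5, beside 7.05% of genes. Their log2 fold changes there ran from -0.14 for Snhg5 to 0.47 for Neat1, with adjusted p in edgeR of 0.798 to 0.992.

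The spliced share was higher for Gas5 and Snhg3 than for the other 3 hosts in every library. These shares were not adjusted for how much of each host is annotated as exon, or for reads with several matches. Of Gas5 exon reads, 38.5% (36.2% to 40.9%, exact binomial interval) spanned an exon-exon junction in the control for DMAT, 37.2% (34.5% to 39.9%) with DMAT, 33.6% (31.0% to 36.3%) in the control for CX4945 and 32.0% (29.4% to 34.7%) with CX4945. The share stood higher in both libraries of the DMAT experiment than in both of the CX4945 experiment, and each inhibitor library was within its control's interval. Snhg1 was at 17.7% to 22.8%, Snhg5 at 12.6% to 19.1% and Snhg12 at 14.6% to 22.0%. Snhg3 had 53.3% (41.4% to 64.9%) in the control for DMAT and 75.9% (56.5% to 89.7%) with DMAT, with overlapping intervals. Its exon-exon reads were 97.2% unique, while its other exon reads mostly had several matches, so its share is not a plain measure of splicing. On exon-exon reads alone, the DMAT interval was below 1 for Gas5 and no other of the 5 hosts, beside 4.9% of 6349 genes. The Gas5 ratio there was 0.813 (0.721 to 0.916) with DMAT, and it was as far from 1 between the controls, at 0.791 (0.699 to 0.894). With CX4945 none of the 5 intervals excluded 1, while 4.19% of 5964 genes lay above 1 and 3.6% below.

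**Figure D5:**
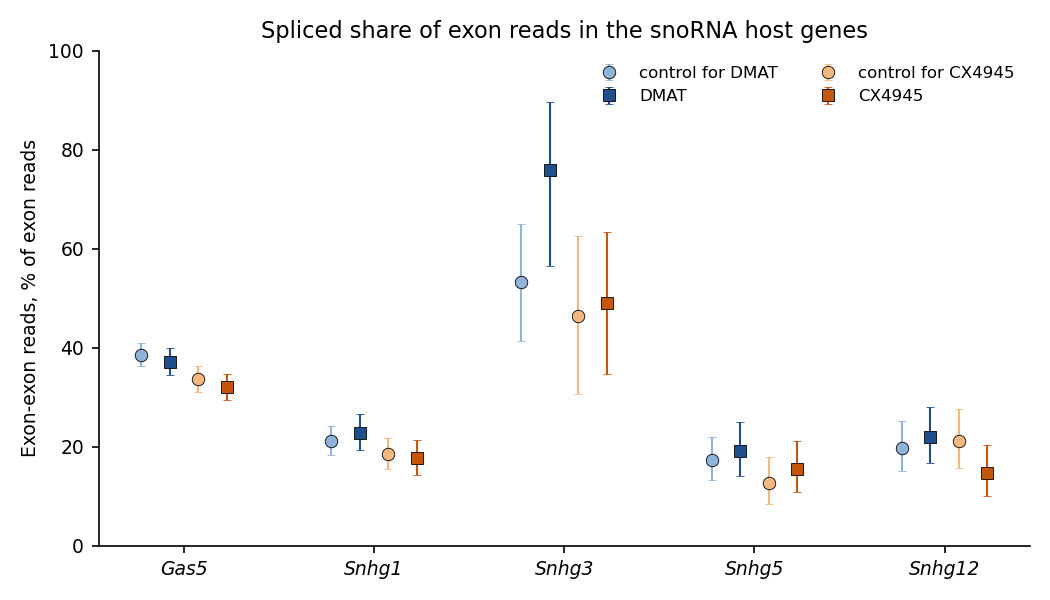
Exon-exon reads as a percent of exon reads for the 5 snoRNA host genes in each library, with exact binomial 95% intervals. Snhg3 has the highest shares and the widest intervals, Gas5 lies at 32.0% to 38.5%, and the other 3 hosts lie between 12.6% and 22.8%. For Snhg3, the exon reads off junctions mostly had several matches.

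Few reads were counted for the snoRNA features themselves. Within the 5 hosts lie 25 features of 60 to 205 bases with no exon length, and GENCODE lists 23 of them by identifier as snoRNA genes. They held 23 gene reads over all 4 libraries, and no feature had more than 3 in a library. Snord47, Snord78 and Snord80 lie in Gas5, Snord22 in Snhg1, Snora73a and Snora73b in Snhg3, and Snora16a, Snora44, Snora61 and Snord99 in Snhg12. Levels of the snoRNAs could not be compared from these counts, and the values above are those of the host genes as annotated. As the counting rule is not given, host exon reads may include reads over snoRNAs. This holds above all for Snhg1, where every base is counted as exon.

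Other genes of the same processes gave the setting. Of 16 other snoRNA host lncRNAs listed, 6 were in the tables and 4 could be tested, and none passed. The most abundant, 1500012F01Rik (also called Zfas1), had 586, 441, 475 and 385 exon reads from the control for DMAT to CX4945, log2 ratios of -0.29 and -0.13, and an adjusted p of 0.612 in edgeR. Both of its inhibitor libraries lay below both controls, as for Snhg1. Of 25 coding snoRNA host genes, none passed, 19 were lower with DMAT (median log2 ratio -0.06) and 19 higher with CX4945 (median 0.09), while 19 were lower in the control for CX4945 than in the control for DMAT. Hspa8, a heat shock chaperone and the most abundant of them, had log2 ratios of -0.03 and 0.39, with 13.8% of its exon reads unique. None of 12 snoRNP core genes passed, and Nop56, a box C/D core protein, had -0.13 with both inhibitors.

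None of 15 genes of nonsense-mediated decay passed, with medians of -0.03 and 0.03, and its kinase Smg1 had 0.03 and 0.07. None of 15 paraspeckle protein genes passed, with medians of 0.00 and -0.01, and none of 18 nuclear speckle genes, with medians of 0.09 and 0.02. Hnrnpk, a paraspeckle component, had 0.03 and -0.06, and Srrm2, a speckle scaffold protein, 0.16 with both.

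Of 30 other long noncoding RNAs listed, 17 were in the tables, 6 could be tested and none passed. Tsix, the antisense RNA of Xist, had 37, 15, 22 and 47 exon reads and log2 ratios of -1.08 and 1.19, but 3.31% of its exon reads were unique and it overlaps Xist, so its reads cannot be told apart from those of Xist here. Xist, the RNA that coats the inactive X chromosome, had 4875, 5017, 3434 and 2658 exon reads and ratios of 0.17 and -0.20, with 2.33% unique. Of the genes linked to ribosomal RNA sequence, both that could be tested rose. Lars2, a mitochondrial leucyl-tRNA synthetase gene, had 238, 635, 300 and 915 exon reads and a joint log2 fold change of 1.66 ± 0.10 (SE). AY036118 had 77, 197, 68 and 186 exon reads and 1.55 ± 0.17. They were higher with both inhibitors, unlike Malat1, and their part in the results above was not tested.

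Markers of other cell types were low. Beside Malat1 and Neat1, the summed level of 8 dendritic cell markers was 10.4, 4.71, 14.9 and 18.2 CPM in the order control for DMAT, DMAT, control for CX4945, CX4945. From 1 to 3 of the 8 had reads, mostly Cd74, while Itgax, Siglech, Clec9a and H2-Aa were at 0 in every library. The 5 erythroid and stromal markers used here summed to 17.3, 12.2, 25.4 and 33.9 CPM, of which nearly all was Pecam1, and Hbb-b1, Hba-a1 and Col3a1 were at 0 throughout. Both lists were lowest with DMAT and highest with CX4945, as Malat1 was. Between the controls the order differed, as both lists were higher in the control for CX4945 and Malat1 in the control for DMAT. The part of these markers in the Malat1 values was not tested. B cell markers summed to 41.8 to 57.3 CPM, nearly all Ighm, with Cd79b and Ms4a1 at 0. Myeloid markers summed to 2.19 to 4.42 CPM, with Lyz2, Lyz1, Itgam and Tyrobp at 0. NK and CD8 markers summed to 3.24, 2.36, 3.94 and 4.91 CPM from the control for DMAT to CX4945, also lowest with DMAT and highest with CX4945.

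Genes with a pattern over the 4 libraries close to that of Malat1 were sought among 3031 genes with at least 200 exon reads on average, by the distance between centred log2 CPM values. The nearest were Psme2, a proteasome activator subunit, at a distance of 0.609 with 31.9% of its reads unique, Kdm6b, a histone H3 lysine demethylase, at 0.670, and Il17ra, an IL-17 receptor chain, at 0.702. Kdm6b had 195, 163, 250 and 437 exon reads, with the CX4945 library highest and the DMAT library lowest, as for Malat1. The nearest to Gas5 were Mapkapk2, a kinase downstream of p38, at 0.0380, Rpl38, a ribosomal protein, at 0.0411 with 18.8% unique, and Lars, a leucyl-tRNA synthetase, at 0.0436. These distances rest on 4 libraries and describe likeness only.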

How the data were processed

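Messenger RNA was profiled in 4 libraries, 1 per group. Per the labels' protocols, total RNA was made into TruSeq libraries, and the build was mm9 with CASAVA 1.8.2, per the submitters' processing notes. For the aligner, annotation, counting rule and strand, the entry is not given in the sources used here. The authors deposited whole-number counts per feature, not normalized. Reads with several matches are part of the exon reads. Snhg6 and Snhg8 were not found.

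Counts were scaled with TMM factors of 0.989 to 1.009 (edgeR 4.0.16, R 4.3.3). Ratios have exact conditional 95% intervals (SciPy 1.17.1). Log2 ratios used a prior count of 2 and genes with at least 20 reads in a pair, and 2-fold was the call. The joint fit took genes with at least 40 reads over the 4 libraries, the experiment as a block and an adjusted p of 0.05 (edgeR quasi-likelihood, Benjamini-Hochberg), with 1 residual degree of freedom per gene. The pairing comes from the titles. The joint fit of exon reads was tested on simulated data in which changed genes moved alike with both inhibitors. That setting does not cover genes whose sign differs between the pairs. Alternatives were other scalings (DESeq2 1.42.0 included), filters, read kinds, controls, no block, and left-out libraries, also without the block.

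All 9 genes are named. From other lists, named genes passed the joint fit, were 2-fold different in a pair, or were the list's most abundant. The members and lists were chosen with earlier results of these data known.

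One marker gene of the erythroid and stromal list is not reported here.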

Additional observations from a re-analysis of the deposited data

Results flagged for a closer look

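For 6 of the 7 genes the log2 ratio was below 0 with DMAT and above 0 with CX4945, each pair being 1 library against 1. The counting intervals excluded 1 in both pairs for Malat1, Neat1 and Gas5, and included 1 in at least 1 pair for Snhg3, Snhg5 and Snhg12. The difference between the pairs was not tested, and 23.9% of 9262 genes had the same signs. The log2 ratio was -0.59 with DMAT and 1.36 with CX4945 for Malat1. For Neat1 it was -0.40 with DMAT and 0.49 with CX4945. Gas5 had -0.27 and 0.13 in the same order, and Snhg3 had -1.19 and 0.46. Snhg5 had -0.36 and 0.11, and Snhg12 had -0.15 and 0.20. Snhg1 was the exception, at -0.44 and -0.25. With the control of the other experiment, the signs of Snhg3 and Snhg5 with CX4945 turned, to -0.11 and -0.10, and that of Snhg12 with DMAT turned, to 0.02.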

How the results depend on the processing

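In each setting of the joint fit other than unique exon reads, 0 of the tested genes passed. The genes tested numbered 7, except 6 with at least 200 reads and 5 with exon-exon reads. With unique exon reads 1 passed, Snhg1, and 113 genes were called in all. Leaving out each library in turn gave 0 to 0 genes of the 7, and 1 to 15 in all. Without the replicate block 0 of the 7 passed, with 1 gene in all, against 93 with the block. The total was 52 with no filter, 4 with at least 200 reads, 39 with gene reads, 12 with exon-exon reads and 3 with DESeq2. For reads outside exons, 55 genes passed, and 17 without the block. With DMAT, 1 gene (Snhg3) was at least 2-fold different. The count was 0 with unique exon reads, with exon-exon reads, with the control for CX4945 and with the mean of both controls. With CX4945, 1 gene (Malat1) was 2-fold different, and 0 were with exon-exon reads, where 5 genes had enough reads. Against the control for DMAT, Malat1 with CX4945 was at 1.05 and Gas5 at 0.01 on the log2 scale, while Snhg3 at -0.11 and Snhg5 at -0.10 turned sign. Snhg12 with DMAT turned to 0.02 against the control for CX4945. In the fits with a library left out, which dropped the block, Malat1 was 1.20 without the DMAT library, 0.75 without its control and -0.46 without the CX4945 library. Malat1 with CX4945 and Snhg3 with DMAT, the 2-fold differences, kept their sign against either control. With 1 library per group, Snhg3 is limited by its counts, and the cause of these shifts was not tested.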
